A study of Mus musculus with 20 samples.

Results

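The comparison set out here is that of the longest but one against the shortest exposure of cultured mouse cortical neurons to oxygen-glucose deprivation (OGD), the culture model of a stroke in which cells lose oxygen and glucose together. Members were chosen by the labelled exposure time alone: 3 arrays at 15 h and 3 arrays at 10 min, 6 of the 20 arrays of the study. All cultures were primary neocortical neurons of Swiss albino mouse fetuses of gestational day 15 to 16, kept for 7 days in culture, and OGD was held without a break at an oxygen partial pressure below 50 mm Hg for the stated time. The 15 h and 10 min cultures thus share strain, age, culture day and agent and differ in its length. The other arrays serve as a frame: 3 at 24 h, 3 each at 5 h and 8 h, and 5 of untreated cultures of the same kind, which had no OGD. The labels number the replicates but do not say whether they were separate cultures, and the p-values therefore take in no more than the scatter among these arrays, part or all of which may be technical.

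Neurons short of oxygen and glucose fail to make enough ATP, release glutamate and take up calcium, and they form oxidants when oxygen is limited or returns. Cells meet oxidants through NRF2, a transcription factor that the protein KEAP1 keeps low until oxidants or electrophiles modify it. NRF2 then binds antioxidant response elements and switches on genes for glutathione synthesis, thioredoxin reduction, quinone reduction and heme breakdown. Another programme, run by ATF4, follows shortage of amino acids or stress of the endoplasmic reticulum. A further one, run by hypoxia-inducible factor (HIF), follows lack of oxygen and switches on glucose transport and glycolysis.

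Intensities were background-corrected, quantile-normalized and put on the log2 scale, so a difference of 1 is a 2-fold difference. Median raw signal lay between 53.1 and 55.6 on the 15 h arrays and between 59.9 and 65.4 on the 10 min arrays, and 38.3% to 40.3% of the probes were detected at 15 h and 37.9% to 39.5% at 10 min. Testing covered the 10447 probes with a detection p under 0.01 on 3 or more arrays. Every 10 min array lay on the first slide, with control replicate 1, and every 15 h array on the third, with control replicates 2 and 3 and the 24 h arrays. Slide and time therefore cannot be told apart except through the controls of each slide, and values with the slide as a block are given beside the results. Control replicate 2 stood apart from the other controls and lay nearest to the 10 min arrays. On the first principal component it lay at 9.7, the 10 min arrays at 12.4 to 15.7 and the 15 h arrays at 27.1 to 27.2. The other controls lay at -24.9 to -14.7. On the second it lay at 14.2, the 10 min arrays at 14.4 to 17.6 and the 15 h arrays at -16.9 to -13.9. The other controls lay there at -9.5 to 0.6. Among markers of the labelled cell type, Tubb3, Syt1 and Map2 were detected on all 6 arrays (Map2 at a mean of 5.88 ± 0.15 at 15 h and 6.38 ± 0.35 at 10 min, SD, n = 3 each), and Snap25 on none. The astrocyte genes Aqp4 (9.84 ± 0.07 at 15 h and 9.42 ± 0.22 at 10 min) and Slc1a3 were also detected on all 6. Of microglia, Aif1 was detected on none of the 6 arrays and Cx3cr1 on 1 at 15 h, and the endothelial genes Pecam1 and Cldn5 on none. Of oligodendrocyte and fibroblast genes, Mbp (5.61 ± 0.04 at 15 h and 6.04 ± 0.08 at 10 min) and Dcn (7.68 ± 0.10 at 15 h and 7.91 ± 0.22 at 10 min) were detected on all 6 arrays, and Mog and Col1a1 on none.

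At 15 h 14 of 26 tested antioxidant and NRF2 target genes were higher than at 10 min and none lower, and 18 of 27 synaptic vesicle and release genes were lower and none higher. The gene lists were drawn up with earlier results of these data known. Their counts, set below beside the shares of all probes, are therefore descriptions and not tests of the lists. Of the 10447 probes, 2000 (19.1%) differed in limma's moderated test with Benjamini-Hochberg adjusted p under 0.05. Of these, 923 (8.84%, 769 genes) were higher at 15 h and 1077 (10.3%, 902 genes) lower, and 50 higher (0.479%) and 60 lower probes (0.574%) differed at least 2-fold. Scaling to the 75th percentile instead gave 715 rises and 1479 falls, and the authors' normalized values, which shift the median of all probes by -0.09, gave 406 rises and 1711 falls. All 3 arrays at 15 h lay outside the range of the 3 arrays at 10 min for 4723 probes (45.2%). Correlations across probes between arrays were 0.992 to 0.994 within 15 h, 0.992 to 0.996 within 10 min and 0.977 to 0.984 between the times. With the slide as a fixed block 1131 probes passed (10.8%), 494 higher (4.73%) and 637 lower (6.1%), of which 656 were among the 2000, and 1958 of the 2000 kept their sign. Without control replicate 2 the blocked count was 1160 (11.1%, with 5.49% higher and 5.61% lower), and with the slide as a random block 10.4% passed (4.22% higher and 6.19% lower).

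The largest rise among named genes was that of Hmox1 (probe 1740687), which encodes heme oxygenase 1, the enzyme that breaks down heme and a standard NRF2 target. It read 12.08, 12.17 and 11.97 on the 15 h arrays, against 9.72, 9.65 and 9.78 on the 10 min arrays. The groups were far apart beside a spread of 0.10 (SD) at 15 h and 0.07 at 10 min. The difference was 2.35 ± 0.23 on the log2 scale (SE, n = 3 each), 5.11-fold, with limma's adjusted p = 8.84e-06 (4.7e-05 once the slide was blocked). The SE, here and below, is that of limma's model over all 20 arrays, not of these 6 alone. Untreated cultures lay between, at 11.60, 10.70, 10.53, 11.68 and 10.73, so Hmox1 was above the control mean at 15 h (by 1.02) and below it at 10 min (-1.33). At 24 h, on the slide of the 15 h arrays, it read 9.97, 10.05 and 10.45, which was lower than at 15 h by limma (-1.92, adjusted p = 0.000316). That comparison uses the same 15 h arrays as the rise.

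Genes that make and recycle glutathione, the main thiol of the cell, were among the 12 leading rises. Gclm (probe 4230270), the modifier subunit of the enzyme that begins glutathione synthesis, read 10.69, 10.93 and 10.70 at 15 h, against 8.99, 8.78 and 9.13 at 10 min. Slc7a11 (probe 2850138), the cystine importer that feeds this synthesis and a target of both NRF2 and ATF4, read 7.67, 7.35 and 7.43 at 15 h, against 5.78, 5.94 and 5.93 at 10 min. Gsr (probe 3520079), the reductase that restores oxidized glutathione, read 10.24, 10.21 and 10.53 at 15 h, against 8.61, 8.42 and 8.85 at 10 min. For none of these did the arrays of the times overlap, which the choice of the leading rises required and which 45.2% of all probes met. Gclm rose by 1.80 ± 0.18 (SE, limma adjusted p = 8.84e-06), or 3.49-fold. Slc7a11 rose by 1.60 ± 0.16 (adjusted p = 8.84e-06), or 3.04-fold. Gsr rose by 1.70 ± 0.20 (adjusted p = 3.1e-05), or 3.25-fold. Blocking the slide left all 3 past the test (adjusted p = 0.000973, 0.00102 and 0.0124). Gsta1, a glutathione transferase, read 6.70, 6.51 and 6.57 at 15 h and was not detected on any 10 min array, so that it was at least 2.29-fold higher (adjusted p = 1.04e-05), with measured means of 6.59 at 15 h and 4.65 at 10 min.

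Srxn1 encodes sulfiredoxin, which reactivates over-oxidized peroxiredoxins. Its leading probe (630731) read 11.78, 11.79 and 11.67 at 15 h, against 9.67, 9.75 and 9.86 at 10 min, a rise of 1.99 ± 0.26 or 3.98-fold (limma, adjusted p = 6.17e-05, and 0.00312 with the block). Its other 2 probes gave 1.95 and 1.88, so 3 probes of this gene rose by about the same amount.

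**Figure D1:**
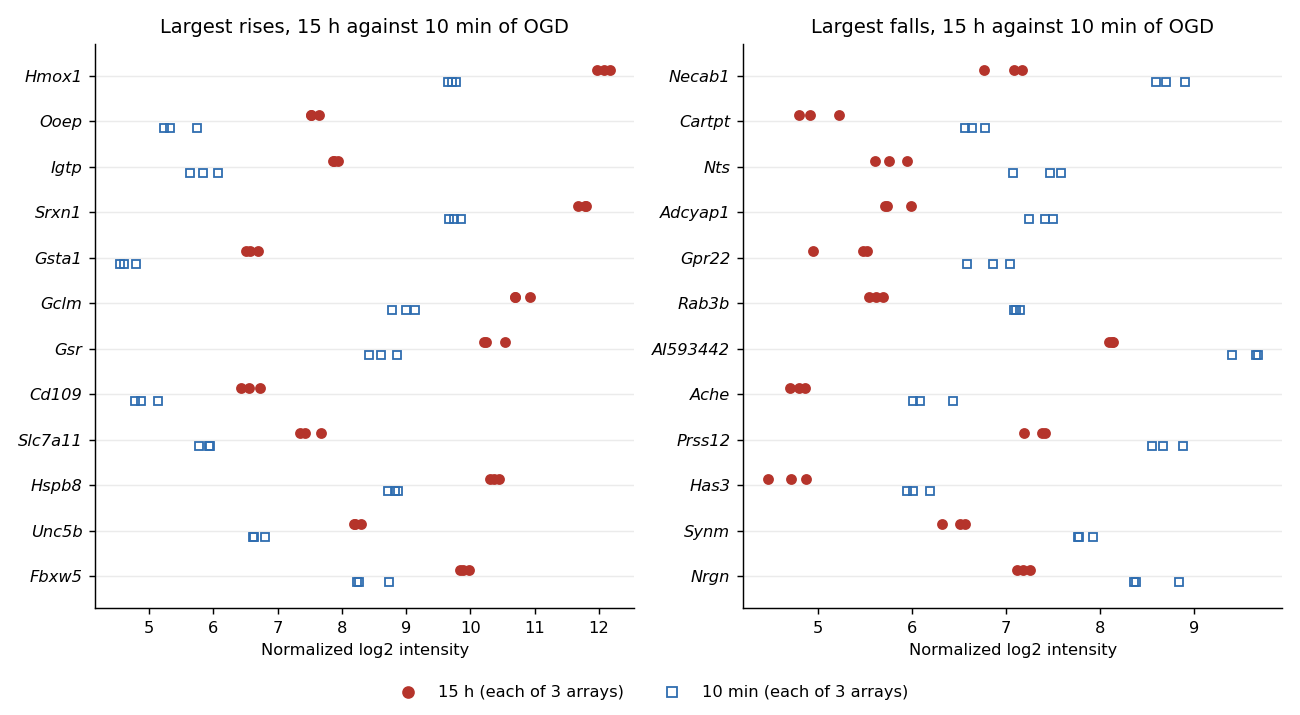
Normalized log2 intensity (horizontal axes) on each of the 3 arrays at 15 h (filled circles) and at 10 min (open squares) of OGD for the 12 named genes with the largest rise (left) and the 12 with the largest fall (right). For all 24 genes the arrays of the times do not overlap, which the choice of these genes required; Hmox1 lies at 11.97 to 12.17 at 15 h and at 9.65 to 9.78 at 10 min.

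The antioxidant and NRF2 list has 35 genes, of which 30 had a named probe and 26 were tested. Past the test, 14 rose and 0 fell, against 8.84% of all probes that rose and 10.3% that fell. The median difference over the list was 0.45, against 0.00 over all probes tested, and 26 of 26 differences were above 0, the lowest at 0.01 for the mitochondrial superoxide dismutase gene Sod2. Besides Hmox1, Gclm, Slc7a11, Gsr and Srxn1, and named after their values were seen, these genes passed. Txnrd1, thioredoxin reductase, rose by 1.1 ± 0.22 (adjusted p = 0.00175), Nqo1, the quinone reductase, by 1.24 ± 0.32 (adjusted p = 0.0118) and the metal-binding metallothionein gene Mt2 by 1.45 ± 0.28 (adjusted p = 0.00145). Gsta4, a transferase that clears lipid aldehydes, rose by 1.14, the autophagy receptor gene Sqstm1 by 0.83, Osgin1 by 0.75, the catalase gene Cat by 0.64, the transketolase gene Tkt by 0.44 and Gstm5 by 0.31. Members that did not pass include Prdx1 at 0.34, the ferritin genes Fth1 and Ftl1 at 0.36 and 0.14, and Keap1, the NRF2 inhibitor, at 0.05. With the slide as a block 7 of the 26 rose and 0 fell (median 0.36), namely Hmox1, Gclm, Slc7a11, Gsr, Srxn1, Txnrd1 and Osgin1, and Nqo1 no longer passed (0.34, adjusted p = 0.744). Without control replicate 2 the block gave 12 rises. Nqo1 read 7.43, 7.47 and 7.33 at 15 h, against 6.50, 6.26 and 5.76 at 10 min, with 6.62 on control replicate 2 and 4.83 to 5.52 on the other controls.

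As the mean over the 26 genes, less the mean of the 10 min arrays, the list lay at 0.79, 0.79 and 0.78 on the 15 h arrays, against -0.02, -0.04 and 0.06 on the 10 min arrays. It stood at 0.10, 0.19 and 0.36 on the 24 h arrays and at -0.36 to 0.20 on the controls, with control replicate 2 at the top of that range. The 15 h arrays thus lay above every control, 10 min and 24 h array. The 10 min arrays lay within the range of the controls, but without control replicate 2 that range was -0.36 to 0.01. Members differed at 10 min: Hmox1, Gclm and Slc7a11 were -1.33, -0.58 and -0.46 from the control mean (limma, adjusted p = 0.000423, 0.0158 and 0.0255). Srxn1 and Gsr were -0.37 and -0.25 from it and did not pass, and the median of the list was 0.19. Set against the controls of their own slides, the median of the list was 0.72 at 15 h (controls 2 and 3) and 0.11 at 10 min (control 1), and 15 h was 1.08 above control 3 alone. Of the 26 genes 6 were lower at 24 h than at 15 h in limma's test and 0 higher, against 0.613% and 0.431% of all probes (1.04% in either direction). That comparison uses the same 15 h arrays as the rises.

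Promoter sequence was read for the genes of the NRF2, ATF4 and HIF lists that passed with the smallest adjusted p and have an entry in the RefSeq promoter table (GRCm38.p6). The antioxidant response element core was searched as TGACNNNGC, the ATF4 response element core as TGATGNAA and the hypoxia response element core as ACGTG, on both strands of the 250 bases before the transcription start. In each gene only the cores of its own lists were searched and marked. Gclm, Slc7a11 and Ankrd37 are shown because each holds such a match, and capitals mark the matched bases. The sequences run 5′ to 3′ in the direction of the gene and end at the base before the start: Gclm on chr3:122245307-122245556 (plus strand), Slc7a11 on chr3:50443614-50443863 (minus strand) and Ankrd37 on chr8:45999851-46000100 (minus strand).
Gclm: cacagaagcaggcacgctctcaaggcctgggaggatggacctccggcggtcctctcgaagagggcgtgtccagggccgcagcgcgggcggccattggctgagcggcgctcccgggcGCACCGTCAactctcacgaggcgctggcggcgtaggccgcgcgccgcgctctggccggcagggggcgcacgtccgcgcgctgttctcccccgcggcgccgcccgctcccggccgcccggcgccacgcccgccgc
Slc7a11: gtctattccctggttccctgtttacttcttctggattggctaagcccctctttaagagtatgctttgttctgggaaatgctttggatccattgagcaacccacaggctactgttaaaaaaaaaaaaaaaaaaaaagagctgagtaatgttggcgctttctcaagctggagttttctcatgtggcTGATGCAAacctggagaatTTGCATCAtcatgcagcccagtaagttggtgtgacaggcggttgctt
Ankrd37: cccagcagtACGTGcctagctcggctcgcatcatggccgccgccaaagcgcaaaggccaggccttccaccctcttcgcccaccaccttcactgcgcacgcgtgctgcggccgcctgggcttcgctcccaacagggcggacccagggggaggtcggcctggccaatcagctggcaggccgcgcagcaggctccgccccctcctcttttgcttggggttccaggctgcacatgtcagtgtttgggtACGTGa
The Gclm match ends 125 bases before the start and lies on the opposite strand. Slc7a11 holds the ATF4 core as a pair on opposite strands, ending 58 and 39 bases before the start, and no NRF2 core in these letters. The promoter windows of Atf5 and Adm held no match of their own list's core, where for Atf5 the first of its 2 promoter entries was read. The shares of genes that follow count a match in any promoter of a gene. The NRF2 core was found in 6 of 23 genes of the list with a promoter, 26.1%, against 14% of 6321 tested genes with a promoter and 10.2% of all 32851 promoters. The ATF4 core was found in 6 of 21 genes of its list (28.6%), against 2.37% of tested genes and 3.45% of all promoters, and the HIF core in 12 of 19 (63.2%), against 25.6% and 16.6%. The lists were drawn up from known targets, and a match is a description of the letters, not of a site in use.

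**Figure D2:**
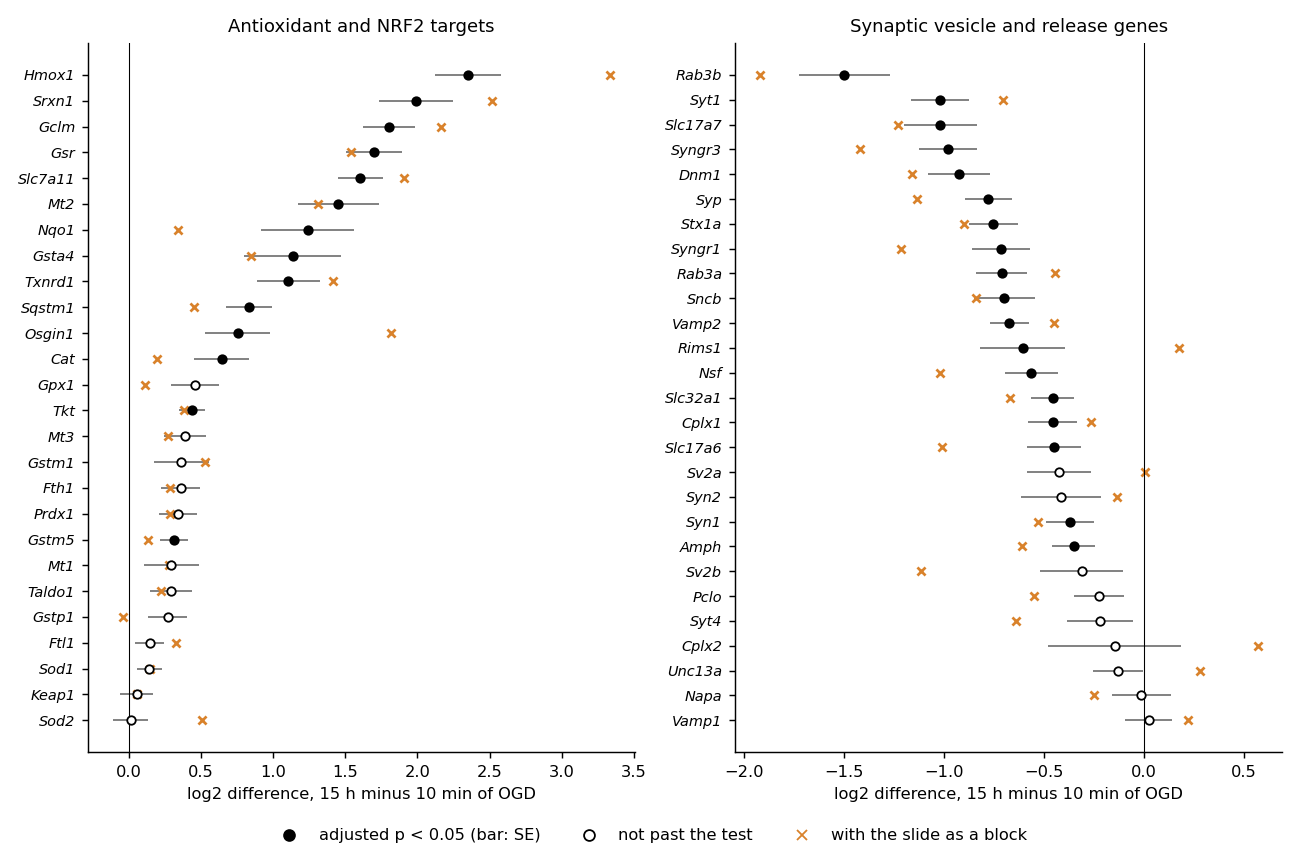
log2 difference, 15 h minus 10 min, with its SE (bars) for the 26 tested genes of the antioxidant and NRF2 list (left) and the 27 tested genes of synaptic vesicles and transmitter release (right). Filled circles passed limma's test at adjusted p under 0.05 (14 and 18 genes), open circles did not, and crosses give the difference with the slide as a block.

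Other leading rises lie outside the NRF2 list. Ooep, known as a maternal protein of the egg, read 7.65, 7.52 and 7.52 at 15 h, against 5.23, 5.33 and 5.74 at 10 min, where 1 of 3 arrays detected it (2.13 ± 0.26, limma adjusted p = 4.26e-05). Igtp, an interferon-induced GTPase, read 7.86, 7.87 and 7.94 at 15 h, against 5.84, 5.63 and 6.07 at 10 min (2.04 ± 0.28, 4.12-fold, adjusted p = 9.81e-05). Both genes were back at 5.24 to 6.61 on the 24 h arrays. Hspb8, a small heat shock protein that works with Bag3 in disposing of misfolded proteins, read 10.45, 10.36 and 10.31 at 15 h, against 8.71, 8.88 and 8.82 at 10 min (1.57 ± 0.25, 2.96-fold, adjusted p = 0.000292). Unc5b, a netrin receptor, rose by 1.54 ± 0.22 (2.91-fold, adjusted p = 0.000116). Cd109, a membrane protein that binds TGF-beta, was not detected on any 10 min array by its leading probe and was at least 2.26-fold higher (adjusted p = 2.83e-05, means 6.57 at 15 h and 4.93 at 10 min), and its other probe rose by 1.21. Fbxw5, a subunit of ubiquitin ligases, rose by 1.49 ± 0.31 (adjusted p = 0.00257) but no longer passed once the slide was blocked (adjusted p = 0.188). With the block Ooep, Igtp, Hspb8, Unc5b and the leading probe of Cd109 passed. Fbxw5 was 0.48 from the control mean at 15 h (limma, adjusted p = 0.186) and -1.01 from it at 10 min. Unc5b was 0.95 and -0.59 from it. Ooep, Igtp, Hspb8 and the leading probe of Cd109 lay 1.68 to 2.27 above it at 15 h and -0.03 to 0.25 from it at 10 min.

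Of the ATF4 and amino acid response, 25 of 34 genes were tested, and 9 rose and 0 fell (median 0.21), against 8.84% of all probes that rose and 10.3% that fell. Among the 9 was Slc7a11, the largest rise of the list (1.60), which is also counted among the 14 rises of the NRF2 list. Atf5, a stress transcription factor, read 9.32, 9.56 and 9.49 at 15 h, against 7.95, 7.96 and 8.15 at 10 min, a rise of 1.44 ± 0.21 or 2.71-fold (limma, adjusted p = 0.000157). Slc3a2, the heavy chain that carries Slc7a11 and Slc7a5 to the membrane, read 7.52, 7.24 and 7.64 at 15 h, against 6.13, 6.01 and 6.61 at 10 min (1.22 ± 0.24, adjusted p = 0.00163). Neither gene's arrays overlapped, and both passed with the block (adjusted p = 0.0012 and 0.00424). Cebpb, a transcription factor of the same family, rose by 0.70 ± 0.14 (adjusted p = 0.00235) and did not pass with the block (adjusted p = 0.121). Named after their values were seen, Slc7a5, the large neutral amino acid transporter, rose by 0.93, the serine synthesis genes Psat1 and Phgdh by 0.66 and 0.45, and Aldh1l2 by 0.54, and Nupr1, not detected on any 10 min array, was at least 1.69-fold higher (means 6.15 at 15 h and 4.83 at 10 min). Of these, the block ended the calls of Phgdh and Aldh1l2 (adjusted p = 0.0659 and 0.342). Atf4 itself differed by 0.03, Asns by -0.25, Chac1 by -0.17 and Ddit3 by 0.25 (adjusted p = 0.263), and none of these passed. Of 11 aminoacyl-tRNA synthetase genes tested 0 rose and 0 fell (median -0.10).

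At 15 h Slc7a11 and Phgdh lay above the control mean, by 1.14 and 0.73 (limma, adjusted p = 7.87e-06 for Slc7a11), and Slc7a5 and Nupr1 differed from it by -0.56 and -0.89. The remaining risers lay between -0.17 and 0.15 from it. Atf5 read 9.87, 8.77, 9.73, 9.96 and 9.81 on the controls, so 15 h was -0.17 from the control mean and 10 min was -1.61 from it. Slc3a2 was 0.13 from the control mean at 15 h and -1.08 from it at 10 min. As a list mean, less that of the 10 min arrays, the 25 genes lay at 0.33, 0.36 and 0.36 at 15 h, against -0.02, -0.03 and 0.05 at 10 min. Controls 1, 3, 4 and 5 lay at 0.94 to 1.04 and control replicate 2 at 0.09. The 15 h arrays thus lay between the 10 min arrays and 4 of the 5 controls. With the slide as a block 8 of the 25 rose (median 0.67), and without control replicate 2 the block gave 5 (median 0.26).

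The lists of protein folding and of the p53 response had fewer rises, to be read against 8.84% of all probes that rose. Of 14 endoplasmic reticulum chaperone genes tested 4 rose and 0 fell (median 0.16), but none passed with the slide as a block. Hspa5, the chief chaperone of that compartment, read 6.81, 6.47 and 7.03 at 15 h, against 6.12, 6.15 and 6.37 at 10 min (0.56 ± 0.16, limma adjusted p = 0.0235), and its sign turned with the block without control replicate 2 (-0.08). Pdia4 rose by 0.45, Sel1l by 0.37 and Sec61a1 by 0.34. The call of Sel1l was lost without 15 h replicate 2, that of Hspa5 without any array but 15 h replicate 2 and 10 min replicate 3, that of Pdia4 without any but 15 h replicate 3 and 10 min replicate 2, and that of Sec61a1 without any but 15 h replicate 1. Of 16 heat shock protein genes 3 rose and 0 fell (median 0.12), and with the block 2 rose and 1 fell. The rises were those of Hspb8, of Bag3 by 0.59 ± 0.12 (adjusted p = 0.00162) and of Hspa4 by 0.58 (adjusted p = 0.0409, and 0.113 with the block), whose call was lost without any 1 of the 6 arrays. Of 19 apoptosis and p53 target genes 6 rose and 0 fell (median 0.18), and with the block 3 rose. Gadd45a, a stress gene of cell cycle arrest and repair, read 7.23, 7.28 and 7.22 at 15 h, against 6.24, 6.24 and 6.20 at 10 min (1.02 ± 0.12, 2.02-fold, adjusted p = 4.21e-05). The spread within each time was a small part of that difference. Trp53inp1, a p53 cofactor, rose by 0.95 ± 0.13 (adjusted p = 0.000131), cyclin G1 (Ccng1) by 0.86 and Phlda3 by 0.73. With the block Gadd45a and Trp53inp1 passed and Ccng1 and Phlda3 did not (adjusted p = 0.184 and 0.316). All 4 were lower at 24 h than at 15 h by limma (adjusted p = 0.0258 to 0.0437). They were named for a small adjusted p at 15 h against 10 min, and the 24 h comparison shares those 15 h arrays. The cell cycle inhibitor Cdkn1a rose by 0.70 ± 0.20 (adjusted p = 0.0214), though its other probe differed by 0.27 (adjusted p = 0.1) and the slide block ended the call (adjusted p = 0.153), as did leaving out 15 h replicate 2 or 3 or 10 min replicate 3. Genes that act in death itself, such as Bak1 at 0.07, Bbc3 at -0.02, Bid at 0.05 and Apaf1 at 0.08, did not pass. Some of the genes that rose lay near the control mean at 15 h and below it at 10 min. Cdkn1a was -0.09 from it at 15 h and -0.78 at 10 min, Hspa5 -0.16 and -0.72, and Hspa4 -0.04 and -0.62. Sec61a1 was -0.14 and -0.48 from it and Sel1l 0.11 and -0.26. The other risers named in this paragraph lay above the control mean at 15 h, from 0.42 (Gadd45a) to 1.81 (Hspb8).

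Genes of the HIF response moved in both directions. Of 23 HIF targets outside glycolysis tested 4 rose and 2 fell (median 0.10), against 8.84% of all probes that rose and 10.3% that fell, so the falls were about at the share of all probes. With the slide as a block 1 rose and 3 fell. Plod1, a collagen hydroxylase, read 7.25, 7.27 and 7.36 at 15 h, against 6.72, 6.77 and 6.80 at 10 min (0.53 ± 0.12, limma adjusted p = 0.00597). The peptide hormone gene Adm, not detected on any 10 min array, was at least 1.05-fold higher (adjusted p = 0.000713, means 5.47 at 15 h and 4.80 at 10 min). Against these, Ankrd37, whose promoter holds 2 copies of the hypoxia core, differed by -0.62 ± 0.13 (adjusted p = 0.00341). It read 5.47, 5.21 and 5.04 at 15 h, where 1 of 3 arrays detected it, against 5.81, 6.07 and 5.70 at 10 min. Pdk1, a kinase that inhibits pyruvate dehydrogenase, differed by -0.59 (adjusted p = 0.00854). Of these 4, Plod1 alone passed with the block (adjusted p = 0.0194). Vegfa, the vascular growth factor, read 9.37, 9.21 and 9.57 at 15 h, against 8.96, 9.08 and 8.98 at 10 min (0.37 ± 0.14), and did not pass (adjusted p = 0.0629). Of 17 genes of glucose transport and glycolysis 4 rose and 2 fell (median -0.06), and on the authors' normalized values 0 rose and 5 fell. Slc2a1, the general glucose transporter, rose by 0.65 ± 0.20 (adjusted p = 0.0264) while Slc2a3, the neuronal one, fell by 0.52 ± 0.12 (adjusted p = 0.00585). Aldoc, the aldolase of astrocytes, which is also counted in the astrocyte list, rose by 0.47 ± 0.10 (adjusted p = 0.00355). Eno2, the enolase of neurons, fell by 0.84 ± 0.17 (adjusted p = 0.00175). All 4 genes also passed with the block. The call of Slc2a1 was lost without any 1 of the 6 arrays (adjusted p = 0.0564 to 0.0816), without the detection filter and on the authors' values, and that of Aldoc on the authors' values. The call of Pdk1 was lost without 15 h replicate 3 or 10 min replicate 2. Bnip3 fell below the detection filter, and no probe is named Hspa1b.

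**Figure D3:**
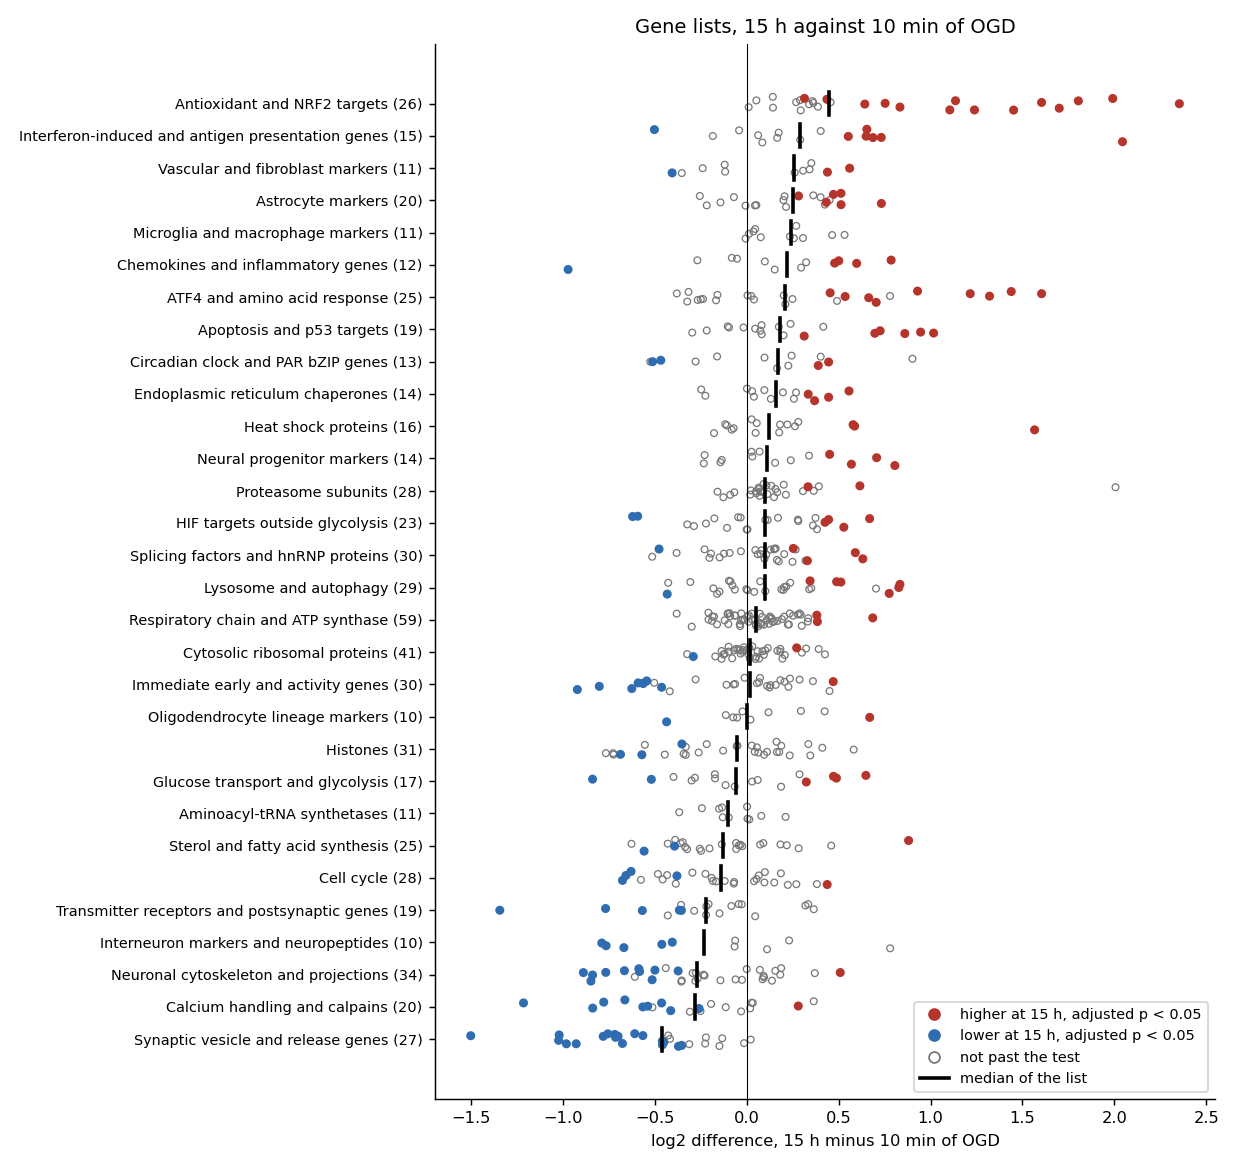
log2 difference, 15 h minus 10 min of OGD (horizontal axis), of each tested gene of 30 lists, ordered by the list's median (black bars), with the number tested in parentheses. Filled points passed limma's test at adjusted p under 0.05 (red higher, blue lower at 15 h); the antioxidant and NRF2 list has the highest median, 0.45, and synaptic vesicle genes the lowest, -0.46.

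Genes of transmitter release fell together. Of 27 synaptic vesicle and release genes tested (of 38 listed) 18 fell and 0 rose, against 10.3% of all probes that fell, and the median was -0.46. Syt1, the calcium sensor of vesicle fusion, read 8.46, 8.39 and 8.32 at 15 h, against 9.51, 9.29 and 9.43 at 10 min. Syp, the vesicle membrane protein synaptophysin, read 11.38, 11.38 and 11.31 at 15 h, against 11.96, 12.20 and 12.25 at 10 min. Every 15 h array was below every 10 min array for both. Syt1 fell by 1.02 ± 0.14 (limma, adjusted p = 0.00012), a 2.03-fold difference, and Syp fell by 0.78 ± 0.12 (adjusted p = 0.000177). Vamp2, the vesicle SNARE, fell by 0.68 ± 0.10 (adjusted p = 0.000147), the vesicle protein gene Syngr3 fell by 0.98 ± 0.14 (adjusted p = 0.000163) and the vesicle GTPase gene Rab3b, a leading fall, fell by 1.5 ± 0.23 (adjusted p = 0.000199). Named after their values were seen, the vesicular glutamate transporter genes Slc17a7 and Slc17a6 differed by -1.02 and -0.45, the vesicular GABA transporter gene Slc32a1 by -0.46, the target SNARE gene Stx1a by -0.75, dynamin 1 (Dnm1) by -0.93 and the fusion ATPase gene Nsf by -0.56, and all 6 passed. Those that did not pass include Sv2a at -0.43, Cplx2 at -0.15 and Vamp1 at 0.02.

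With the slide as a block 12 of the 27 fell and 0 rose (median -0.64). Syp, Syngr3 and Rab3b were among them (adjusted p = 0.00202, 0.00181 and 0.00508), and Syt1 (adjusted p = 0.0562) and Vamp2 (adjusted p = 0.0957) were not. As a list mean, less that of the 10 min arrays, the genes lay at -0.53, -0.57 and -0.56 at 15 h, against 0.01, 0.06 and -0.07 at 10 min, while the controls lay at 0.00 to 0.25 and the 24 h arrays at -0.44 to -0.15. The 15 h arrays were thus below all other arrays named here, and the 10 min arrays were near the controls. In RNA of whole cultures, fewer cells of a type and less RNA per cell cannot be told apart.

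Postsynaptic and structural genes of neurons moved the same way in smaller numbers. Nrgn, neurogranin, which binds calmodulin in dendrites, read 7.12, 7.18 and 7.25 at 15 h, against 8.36, 8.84 and 8.38 at 10 min (-1.34 ± 0.17, 2.54-fold, limma adjusted p = 6.18e-05). Of 19 receptor and postsynaptic genes 5 fell and 0 rose (median -0.22), against 10.3% of all probes that fell, and 2 fell with the block (1 without control replicate 2). Among the 5 were the kinase subunit gene Camk2b by -0.77 and the scaffold gene Dlg3 by -0.57 (adjusted p = 0.000474 and 0.000602, and 0.0572 and 0.0223 with the block). The glutamate receptor genes Gria1, Gria2 and Gria3 differed by 0.32, -0.21 and 0.33 and did not pass. Of 34 cytoskeleton and projection genes 10 fell and 1 rose (median -0.27), and with the block 6 fell and 2 rose. Stmn3 and Stmn2, which destabilize microtubules in growing neurites, differed by -0.89 and -0.66 (adjusted p = 0.000326 and 0.000754), the RNA-binding protein gene Elavl2 by -0.85 (adjusted p = 5.11e-05) and the adhesion gene Nrcam by -0.59 (adjusted p = 0.00127, and 0.0784 with the block). Tubb3 at -0.06, Dcx at -0.27 and Gap43 at -0.29 did not pass, and the 1 rise was that of the adhesion gene Ncam1 (0.51, named after its value was seen).

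Among the 12 leading falls were 3 neuropeptide genes. Cartpt, the precursor of the CART peptides, was not detected on any 15 h array, against 6.78, 6.64 and 6.56 at 10 min (measured means 4.97 at 15 h and 6.66 at 10 min), so that it was at least 2.49-fold lower (limma, adjusted p = 0.000204). Nts, neurotensin, read 5.60, 5.75 and 5.95 at 15 h, against 7.58, 7.47 and 7.07 at 10 min (-1.61 ± 0.26, 3.05-fold, adjusted p = 0.000297). Adcyap1, the neuropeptide PACAP, read 5.71, 5.99 and 5.73 at 15 h, against 7.41, 7.50 and 7.24 at 10 min (-1.57 ± 0.23, 2.97-fold, adjusted p = 0.000147). The arrays of the times were separate for all 3 genes, which their choice as leading falls required. With the block all 3 passed (adjusted p = 0.00702, 0.0012 and 0.000529). Of 10 interneuron markers and neuropeptides tested 5 fell and 0 rose (median -0.23), against 10.3% of all probes that fell, and with the block 4 fell (2 fell and 1 rose without control replicate 2). Sst, somatostatin, read 11.28, 11.20 and 11.21 at 15 h, against 12.10, 11.87 and 12.09 at 10 min (-0.79 ± 0.15, adjusted p = 0.001). Calb2, calretinin, fell by 0.67 on the probe used (adjusted p = 0.00116, and 0.171 with the block) and by 1.15 on the other. Tac1, substance P, not detected on any 15 h array, was at least 1.18-fold lower (adjusted p = 0.0097). Gad1, an enzyme of GABA synthesis, fell by 0.40 (adjusted p = 0.0178) on 1 probe while the other differed by 0.02. The call of Tac1 was lost without 15 h replicate 3 or 10 min replicate 1, and that of Gad1 without 15 h replicate 2 or 10 min replicate 1 or 2. Where these genes lay against the controls differed: Nts was -1.71 from the control mean at 15 h and -0.10 from it at 10 min, whereas Cartpt was -0.52 from it at 15 h and 1.16 from it at 10 min, and Sst -0.14 and 0.65.

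The largest fall of a named gene was that of Necab1. Necab1 (probe 5860450), a neuronal calcium-binding protein, read 7.08, 6.76 and 7.17 at 15 h, against 8.70, 8.90 and 8.60 at 10 min. The fall was 1.73 ± 0.28 on the log2 scale or 3.32-fold (the difference as tested was -1.73, limma adjusted p = 0.000327, and 0.000472 with the block). Control replicate 2 read 8.77, with the 10 min arrays, and the other controls 6.95 to 7.66. Vsnl1, the calcium sensor visinin-like 1, read 9.11, 9.21 and 9.19 at 15 h, against 10.36, 10.52 and 10.26 at 10 min (-1.21 ± 0.19, 2.32-fold, adjusted p = 0.000226). Of 20 calcium handling and calpain genes, a list without Necab1, 9 fell and 1 rose (median -0.28), against 10.3% and 8.84% of all probes, and with the block 7 fell and 0 rose. The sodium-calcium exchanger gene Slc8a1 differed by -0.78 (adjusted p = 0.00603), the calpain gene Capn5 by -0.66 (adjusted p = 0.00153) and the calcineurin subunit gene Ppp3cb by -0.46 (adjusted p = 0.00685). The 1 rise was that of Capn2, a ubiquitous calpain (0.28, named after its value was seen, and not past the test with the block, adjusted p = 0.462).

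The remaining leading falls have other roles. Prss12, a secreted protease of synapses, read 7.38, 7.19 and 7.41 at 15 h, against 8.67, 8.88 and 8.55 at 10 min (-1.37 ± 0.14, 2.59-fold, limma adjusted p = 1.16e-05), and its other probe differed by -1.34. Ache, acetylcholinesterase, and Has3, a hyaluronan synthase, were not detected on any 15 h array and were at least 1.78-fold and 1.63-fold lower (adjusted p = 0.000321 and 3.39e-05). Synm, an intermediate filament protein, differed by -1.36 and by -0.76 on its other probe. The orphan receptor gene Gpr22 differed by -1.51 ± 0.35 (adjusted p = 0.00618) and was detected on 2 of 3 arrays at 15 h. For AI593442 the leading probe gave -1.46 (adjusted p = 0.000863) and the other -0.33 (adjusted p = 0.109), so its probes disagree.

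Of 30 immediate early and activity genes tested 8 fell and 1 rose (median 0.02), against 10.3% and 8.84% of all probes, and with the block 5 fell and 1 rose. Homer1, whose short form is made on activity, read 8.43, 8.42 and 8.40 at 15 h, against 9.22, 9.45 and 9.34 at 10 min (-0.92 ± 0.11, 1.89-fold, limma adjusted p = 3.1e-05). The polo-like kinase genes Plk3 and Plk2 differed by -0.80 and -0.62 and Fosl2 by -0.59 (adjusted p = 0.00105, 0.00119 and 0.00341), of which Plk2 did not pass with the block (adjusted p = 0.0913). Fos read 8.25, 8.06 and 8.27 at 15 h, against 8.05, 8.08 and 7.83 at 10 min (0.21 ± 0.25, adjusted p = 0.616). Egr1 at 0.11, Arc at 0.12, Npas4 at 0.18 and Bdnf at 0.07 did not pass. Fos lay below the control mean at both times, at -1.16 at 15 h and -1.37 at 10 min.

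Of the lists of other cells, those of astrocytes and progenitors held rises only. Their counts are to be read against 8.84% of all probes that rose and 10.3% that fell. Of 20 astrocyte markers tested 6 rose and 0 fell (median 0.25), with the block 1 rose (5 without control replicate 2), and their summed linear intensity was 69540 to 74618 on the 15 h arrays, 55050 to 60578 on the 10 min arrays and 40853 to 52576 on the controls. Vim, an intermediate filament of astrocytes and progenitors, read 13.13, 12.94 and 13.05 at 15 h, against 12.35, 12.19 and 12.38 at 10 min (0.73 ± 0.12, limma adjusted p = 0.000342, and 0.099 with the block). The defining markers Gfap, Aqp4 and Slc1a3 differed by -0.25, 0.43 and 0.28, and of these Slc1a3 passed (adjusted p = 0.045, and 0.183 with the block). Of 14 progenitor markers 4 rose and 0 fell (median 0.11), with the block 2 rose, and among the 4 were Notch1 by 0.81 ± 0.13 (adjusted p = 0.000311) and Nes by 0.45, whose call was lost without 15 h replicate 1 or 3 or 10 min replicate 1 or 2. The sums of this list were 5542 to 5788 at 15 h, 4518 to 4911 at 10 min and 3024 to 3853 on the controls. Of 11 microglia and macrophage markers 0 passed (median 0.24), with sums of 2101 to 2228 at 15 h and 1707 to 1840 at 10 min. The summed intensity of the 27 release genes was 23344 to 23992 at 15 h and 32954 to 35158 at 10 min, and that of the 34 cytoskeleton genes 68518 to 71117 at 15 h and 80694 to 82826 at 10 min. The part of the cell make-up of the cultures in the antioxidant rises and the neuronal falls was not tested.

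Levels at 24 h, the one later time and on the same slide as 15 h, show whether the 15 h values were held. Against the 24 h arrays the comparison shares its 15 h arrays with the one above, by which most named genes were chosen, so its values are set beside them only. Srxn1 was lower at 24 h than at 15 h by -1.53 (limma, adjusted p = 0.00529), Gclm by -1.34 (adjusted p = 0.000781), Slc7a11 by -1.28 (adjusted p = 0.000316) and Atf5 by -1.21 (adjusted p = 0.00563). Necab1 was higher at 24 h by 1.37 (adjusted p = 0.0206), Prss12 by 0.83 (adjusted p = 0.00529), Syt1 by 0.68 (adjusted p = 0.0233) and Syp by 0.49 (adjusted p = 0.0458). Others did not pass at 24 h against 15 h, among them Nrgn at 0.51 (adjusted p = 0.153), Cartpt at -0.04 (adjusted p = 0.964) and Vim at -0.26 (adjusted p = 0.303).

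**Figure D4:**
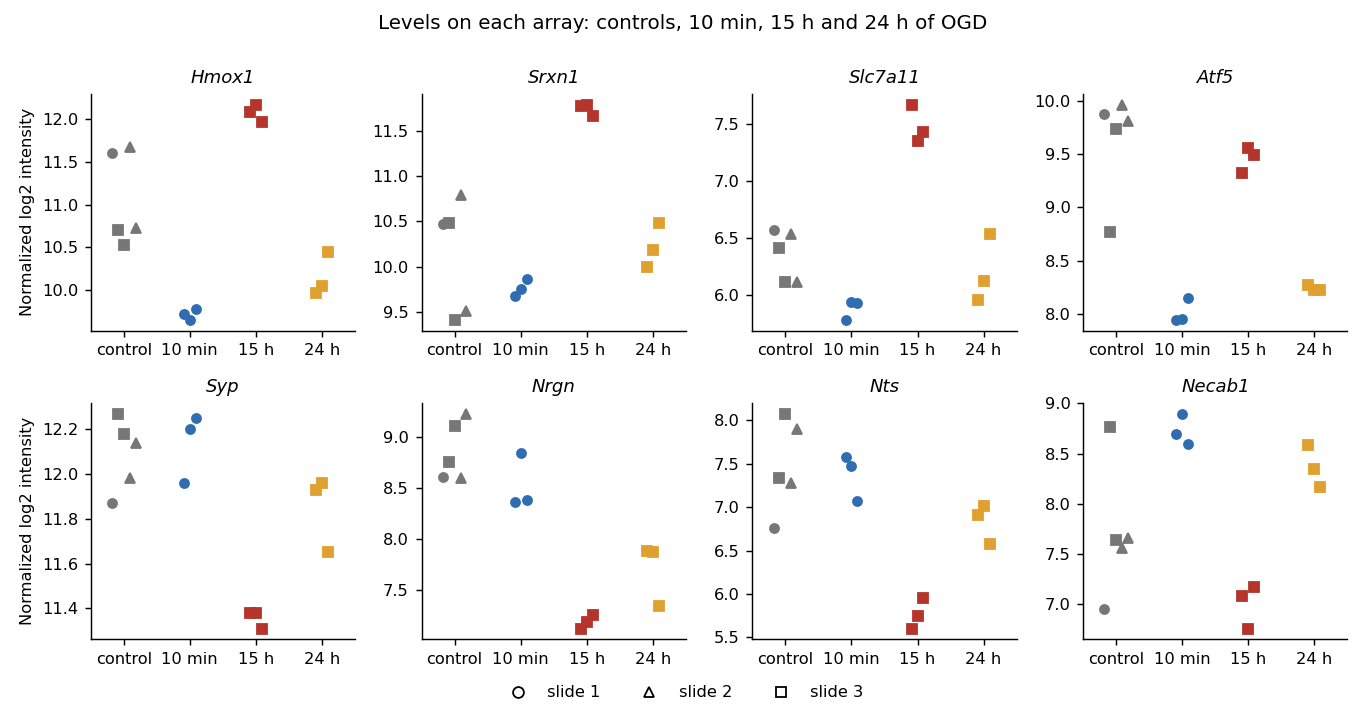
Normalized log2 intensity (vertical axes, which differ between panels and do not start at 0) of 8 genes on each array of the controls and of 10 min, 15 h and 24 h of OGD, with the slide as the marker shape. Hmox1, Srxn1 and Slc7a11 lie highest at 15 h, Atf5 lies between the 10 min arrays and 4 of the 5 controls, and Syp, Nrgn and Nts lie lowest at 15 h.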

How the data were processed

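RNA of 20 samples of cultured neurons was hybridised to Illumina MouseRef-8 v1.1 arrays, 1 array a sample. Per the file headers, the authors exported the deposited probe profile from BeadStudio with no normalization: average signals as intensity, and a detection score (1 minus the detection p). The authors' normalized values are a ratio, which the values show to be intensity over the array's median and then over the probe's control median. Probes were named through the profile's own identifiers, which were paired with platform probes (24167) by identical values in the deposited normalized tables. Of 7612 paired identifiers that hold a mouse gene number, 7474 (98.2%) hold that of the annotated gene, and 0 after shuffling. Identifiers of the processed rows were not used to name values, since 24601 of those rows could be traced to 1 profile probe each by value and only 2 bear its identifier. Gene symbols were found for 20614 of 24620 probes (3999 had none, and 7 bacterial controls were left out). Among the processed columns, 5 of controls hold another control array than their label, and the authors' values were moved to the arrays they match. A further 120 columns with other measures of the arrays were not used.

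From the deposited intensity, neqc of limma 3.58.1 (R 4.3.3, offset 16) made background-corrected, quantile-normalized log2 values. Probes detected at p under 0.01 on at least 3 arrays were tested (10447). One model over all 20 arrays in 6 groups (14 residual degrees of freedom) gave 15 h minus 10 min, with moderated two-sided tests and Benjamini-Hochberg adjustment over all tested probes. The script was tested on simulated data. The number of arrays limits the precision. Where no array of a time detected a gene, the fold is a bound: the mean of the brighter time against, per array, the higher of the lowest detected signal and the probe's own signal.

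Named genes were the 12 largest rises and 12 largest falls past the test without overlap of the arrays, up to 4 members of each list with the smallest adjusted p, and Vegfa, Slc2a1, Bnip3, Hmox1, Fos, Ddit3, Cdkn1a and Hspa1b. For a gene with several probes in a list, 1 probe is used and disagreeing probes are given. The members and lists were chosen with earlier results of these data known. Alternatives were the slide as a fixed or random block, the replicate number as a block, other scalings, filters, thresholds, the 6 arrays alone, array weights and leaving out each array. Same-numbered arrays of 15 h and 10 min deviated together with correlations of 0.11, 0.03 and 0.23, so the numbers were not taken as pairs.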

Additional observations from a re-analysis of the deposited data

Results flagged for a closer look

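Every value here is of an untreated control array that stood apart from the other 4 controls by Dixon's test at 95%, which chance meets in about 1 in 20 groups. Control replicate 2 read 6.52 for Cartpt, 7.57 for Gpr22, 8.77 for Atf5, 7.76 for Mcm5, 7.57 for Tardbp and 9.96 for Cdkn1a on the log2 scale. On the same array the mean of a list, less its mean on the 10 min arrays, was 0.09 for the ATF4 and amino acid response, 0.00 for aminoacyl-tRNA synthetases, -0.36 for cell cycle genes, 0.10 for oligodendrocyte lineage markers and -0.11 for chemokines and inflammatory genes. Control replicate 1 read 8.25 for Pdia4 and 8.94 for Fosl2, and control replicate 4 read 7.37 for Sox2. These arrays enter the comparison of 15 h with 10 min through the shared spread and, with the slide as a block, through the slide term.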

How the results depend on the processing

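The main count was 2000 probes, 923 higher and 1077 lower at 15 h. With the slide as a fixed block it was 1131 (494 higher, 637 lower), as a random block 1088 (441, 647) and as a fixed block without control replicate 2 1160 (574, 586). With the 6 arrays alone it was 3173 (1537, 1636), with array weights, whose estimation stopped before convergence, 4241 (2062, 2179), at adjusted p under 0.01 888 (367, 521) and with a 2-fold minimum 110 (50, 60). On the authors' values 406 were higher and 1711 lower. Leaving out 1 array at a time gave 1018 to 1516 probes, 441 to 712 higher and 577 to 825 lower; the count moved by over 1.5 times without 15 h replicate 1 (1291) or 3 (1181) and without 10 min replicate 1 (1270) or 2 (1018). The replicate block gave 1802 (832, 970). Without control replicate 2 and with no block, an alternative chosen after seeing the data, it was 2501 (1156, 1345). The sign turned for Hspa5 (-0.08, slide block without control replicate 2), Col4a2 (0.03 with the slide block and 0.01 without control replicate 2) and Uqcrh (-0.10 and -0.12). Of 117 named genes past the test 49 passed under every alternative run; the slide as a fixed block ended 58 calls and the replicate block 7. Over these alternatives 7 to 22 NRF2 genes rose and 0 fell, and 12 to 21 release genes fell and 0 rose. The cause of these shifts was not tested. Genes near background have only bounds or understated differences.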

Other observations

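The counts of further lists in limma's test are to be read against 8.84% of all probes that rose and 10.3% that fell. Of 15 interferon-induced and antigen presentation genes 6 rose and 1 fell (median 0.29), and with the slide as a block 1 rose and 0 fell: besides Igtp, the GTPase gene Gbp3 rose by 0.73 (adjusted p = 0.000169), B2m, the light chain of MHC class I, by 0.65 and Irgm1 by 0.65, and Igtp alone of these 4 passed with the slide as a block. Of 12 chemokine and inflammatory genes 4 rose and 1 fell (median 0.22), and with the block 0 rose and 1 fell. The fall was that of Cx3cl1, the neuronal chemokine fractalkine (-0.97, adjusted p = 0.000311, and 0.00545 with the block), while Icam1, not detected on any 10 min array, was at least 1.53-fold higher (adjusted p = 0.00305, and 0.266 with the block). Of 29 lysosome and autophagy genes 6 rose and 1 fell (median 0.10), and with the block 1 rose and 1 fell. Among the 6 was Sqstm1, which is also counted in the NRF2 list. Npc2, a cholesterol carrier gene, rose by 0.78 and passed with the block (adjusted p = 0.0203), and Wipi1 rose by 0.83 and did not (adjusted p = 0.0753). Of 25 sterol and fatty acid synthesis genes 1 rose, Scd1 at 0.88, and 2 fell (median -0.13).

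Against the same shares of all probes, most of the following counts were near or under them. Of 28 cell cycle genes 1 rose and 4 fell (median -0.14), of 59 respiratory chain genes 3 rose and 0 fell (median 0.05), of 28 proteasome genes 2 rose and 0 fell (median 0.10), of 41 ribosomal protein genes 1 rose and 1 fell (median 0.02), of 31 histone genes 0 rose and 3 fell (median -0.05), of 13 circadian genes 2 rose and 2 fell (median 0.17) and of 30 splicing genes 4 rose and 1 fell (median 0.10). Of 10 oligodendrocyte markers 1 rose and 1 fell, and of 11 vascular and fibroblast markers 2 rose and 1 fell, and with the block 0 of either list rose or fell. The proteasome gene Psmc1 read 7.99, 8.23 and 8.39 at 15 h, against 5.26, 8.12 and 5.21 at 10 min, so 1 of the 10 min arrays lay with the 15 h arrays (2.01, adjusted p = 0.0609).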
